A study of Mus musculus with 54 samples.

Results

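The genes described here encode the proteins of the cytosolic ribosome, followed through 18 stages of mouse mammary gland development. Members were the probe sets (groups of short probes for 1 transcript) whose array annotation gave exactly 1 symbol of the Rpl or Rps form, or Rplp0, Rplp1, Rplp2, Rpsa or Fau. This rule, which uses no measured value, found 50 of 12422 non-control probe sets, for 36 genes. Another 39 ribosomal probe sets with several symbols were left out. Probe sets for Rplp1, Rplp2 and Rps6 under a single symbol were not analysed here.

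The samples were 54 inguinal (4th) mammary glands with the lymph node removed, 1 gland of 1 mouse per array and 3 mice per time point. They came from virgin mice of 6, 10 and 12 weeks, from days 1, 2, 3, 8.5, 12.5, 14.5 and 17.5 of pregnancy, from days 1, 3 and 7 of lactation and from days 1, 2, 3, 4 and 20 of involution. Mice were mated at 12 weeks, and involution was started by removing the pups after 7 days of lactation. The sources used here do not name the strain, and by the labels no group carried a transgene or received a drug. The RNA is of the whole gland, so fewer cells of a type and less RNA per cell cannot be told apart.

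The ribosome is built from a large and a small subunit, each of ribosomal RNA and many proteins, most of them encoded by single functional genes that are made in matched amounts. Many of these messenger RNAs start with a tract of pyrimidines through which growth signals acting on the kinase mTOR set their translation. In the mammary gland, alveolar epithelium multiplies in pregnancy and then secretes very large amounts of milk protein.

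RefSeq start sites were listed for 29 of the 36 genes (build GRCm38.p6, 38 starts), which allowed the pyrimidine tract to be looked for. The windows printed here run 30 bases, from 15 before to 15 after the start, with the longest run of C or T in capitals. The first 4 are of members with a long run and the last 4 of members without one, and both sets hold members whose signals followed different courses.

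Rpl7a (chr2:26910792-26910821, plus strand): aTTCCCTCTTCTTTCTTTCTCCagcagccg
Rps10 (chr17:27635230-27635259, minus strand): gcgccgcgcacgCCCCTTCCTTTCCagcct
Rps18 (chr17:33955651-33955680, minus strand): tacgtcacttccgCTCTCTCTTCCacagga
Rpl13a (chr7:45128731-45128760, minus strand): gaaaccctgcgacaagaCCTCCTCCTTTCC
Rpl22 (chr4:152324421-152324450, plus strand): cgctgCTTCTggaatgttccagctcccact
Rplp0 (chr5:115559452-115559481, plus strand): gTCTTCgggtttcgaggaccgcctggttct
Rpl41 (chr10:128549154-128549183, minus strand): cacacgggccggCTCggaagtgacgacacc
Rpsa (chr9:120127751-120127780, plus strand): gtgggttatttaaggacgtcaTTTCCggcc

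A run of at least 8 pyrimidines on the transcribed-sense strand was present at 1 or more starts of 12 of the 29 genes, or 41.4%, against 13.9% of 27025 genes with a listed start. On the opposite strand the same run was present in 6.9% of the 29 genes and 15.3% of all genes. A listed start may lie some bases from the start used in this tissue, so a window without a run says only that the letters are not in it.

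Whole-array facts set the limits of what follows. The 3 arrays of a time point correlated at r between 0.875 and 0.975. None of the 7 luminal epithelial genes was at the floor on all 3 arrays of any time point compared, and the 8 milk protein genes held between 0.0397% and 4.81% of an array's summed signal. Krt5, a keratin of myoepithelium, was at the floor on all 3 arrays of 7 time points, those of the virgin gland among them. The ratio of 3' to 5' probe sets of beta-actin, a sign of RNA quality, was 3.75 ± 0.363 (SD, n = 3) at virgin week 6 and 1.99 ± 0.487 at week 12. Signals of Arl2bp and Glo1, 2 genes outside the family, separated the mice into high and low sets: Arl2bp averaged 693.3 in the 12-week virgin mice, 76.7 on pregnancy day 14.5 and 81.3 on lactation day 7, while mice of 1 time point lay on either side on pregnancy days 8.5 and 17.5, early in lactation and on involution day 3. Signals had been scaled by the authors to a common level per array, and 3 other scalings were tried: to the same median, to the same sum without milk protein genes, and quantile normalization. Scaling to the same median moved the median log2 difference of all probe sets by -0.20 between virgin weeks 12 and 6, 0.18 between pregnancy day 14.5 and virgin week 12, -0.15 between lactation day 7 and pregnancy day 14.5 and 0.14 between involution day 20 and virgin week 12, and quantile normalization moved the first of these by -0.12.

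Ribosomal protein transcripts were among the brightest of the arrays. The 23 probe sets with a mean signal of at least 112.8, the 75th percentile of the table, are called bright here; they cover 21 genes and held between 98.57% and 99.28% of the family's signal on every array. Rpl41, a very short peptide of the large subunit, had the highest signal of the whole table, 17265.5 on 1 array of lactation day 7, and a geometric mean of 9384 over all arrays. Rplp0, the scaffold of the ribosomal stalk, followed at 5453, with both bright probe sets of the small-subunit gene Rps28 at 5346 and 5083 and Rps24 at 4820. Probe sets differ in their binding strength, so these signals give no order of transcript amounts.

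Of the 50 probe sets, 39 for 29 genes passed the filter on low signal and were tested. The 11 that did not pass are for Rps29, Fau, Rps20, Rpl32, Rps4x (2 probe sets), Rpl39, Rps27l, Rps15, Rps14 and Rpl38, and each lay at or under the floor of 9.4 on 20 or more of the 54 arrays. A probe set passed with all 3 arrays of 1 time point above 22.8, and Rpl7 97697_at and Rpl35a passed only through lactation day 7, Rps24 93121_at only through involution day 1 and Rps4x 162498_r_at only through pregnancy day 3. Rps4x 162229_at, the dimmest, was at the floor on 53 arrays, although another Rps4x probe set was bright at 3364. A signal at the floor therefore describes the probe set and not the gene.

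By time-point means, the family held a larger part of the summed array signal at each stage of pregnancy and lactation than at any virgin or involution stage, although single mice overlapped. Its share was 3.77, 3.65 and 3.59% in the 3 mice of virgin week 12, 4.52, 4.57 and 4.03% at pregnancy day 14.5, 5.34, 4.98 and 4.76% at lactation day 7, and 3.48, 3.19 and 3.17% at involution day 3. The 3 mice of lactation day 7 were all above those of pregnancy day 14.5, which were all above those of virgin week 12, and involution day 3 was the lowest time point at 3.28 ± 0.175% (SD, n = 3). Pregnancy day 12.5, at 4.71 ± 0.19%, was the second highest, within the spread of pregnancy day 17.5 at 4.58 ± 0.212%.

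**Figure D1:**
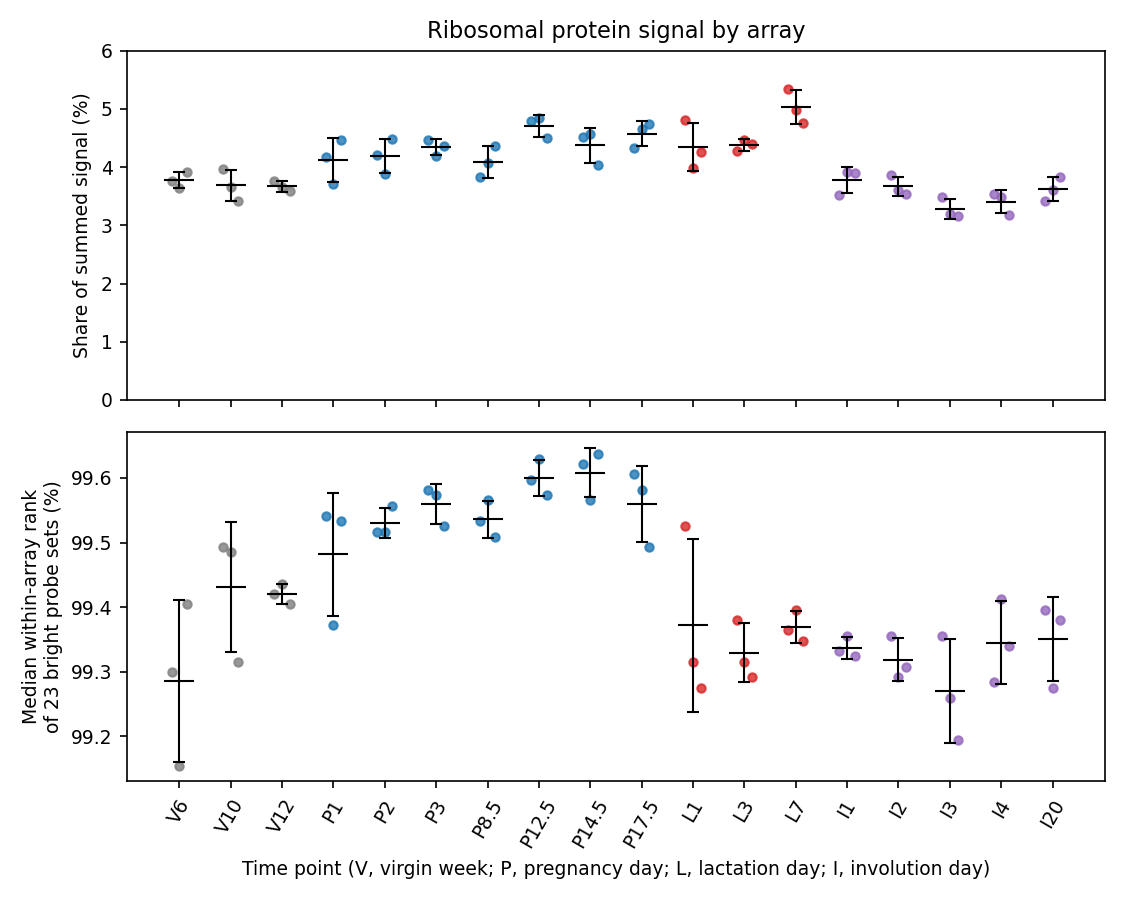
The upper panel plots the share of each array's summed signal held by the 50 probe sets (percent), and the lower panel the median within-array rank of the 23 bright probe sets (percent of probe sets below), against time point; points are mice, bars the mean and SD of 3. The share was highest at lactation day 7 (5.03 ± 0.295%), whereas the rank was highest at pregnancy day 14.5 (99.61 ± 0.038%) and lower at lactation day 7 (99.37 ± 0.025%).

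The rank of the members within an array, which no rescaling of a whole array can move, gave a different order. The median rank of the bright probe sets was 99.62, 99.57 and 99.64% in the mice of pregnancy day 14.5 and 99.36, 99.40 and 99.35% in those of lactation day 7. By rank, the secreting gland lay below the growing gland in all 3 mice, while by share of signal it lay above. At virgin week 12 the ranks were 99.42, 99.44 and 99.40%, also below pregnancy day 14.5. A share moves mostly with the brightest probe sets and the median rank with the middle of the bright ones, and both are given for this reason. The median rank lay between 99.15 and 99.64% on all arrays, so these differences are small and near the top of the scale.

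Relative to its own mean over the 18 time points, the median bright probe set stood at -0.20 ± 0.034 (log2, SD, n = 3) in the 12-week virgin gland, 0.26 ± 0.092 on pregnancy day 12.5, 0.39 ± 0.107 on lactation day 7 and -0.37 ± 0.136 on involution day 3. The median difference of the bright members between lactation day 7 and pregnancy day 14.5 was 0.13 as deposited, and -0.04, -0.06 and -0.37 after scaling to the same median, to the sum without milk protein genes and by quantiles. The large-subunit members alone gave 0.37 ± 0.077 at lactation day 7 and -0.32 ± 0.078 at involution day 3, and those of the small subunit 0.36 ± 0.141 and -0.37 ± 0.157. The subunits thus differed by less than the spread between mice at both stages. They differed by more than either SD on pregnancy day 12.5, at 0.393 ± 0.056 for the large and 0.221 ± 0.083 for the small subunit. The same held at virgin week 12, at -0.255 ± 0.053 and -0.139 ± 0.065. Of the 23 bright probe sets, 10 were highest at lactation day 7 and 5 at pregnancy day 12.5, while 9 were lowest at virgin week 6 and 7 at involution day 3.

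**Figure D2:**
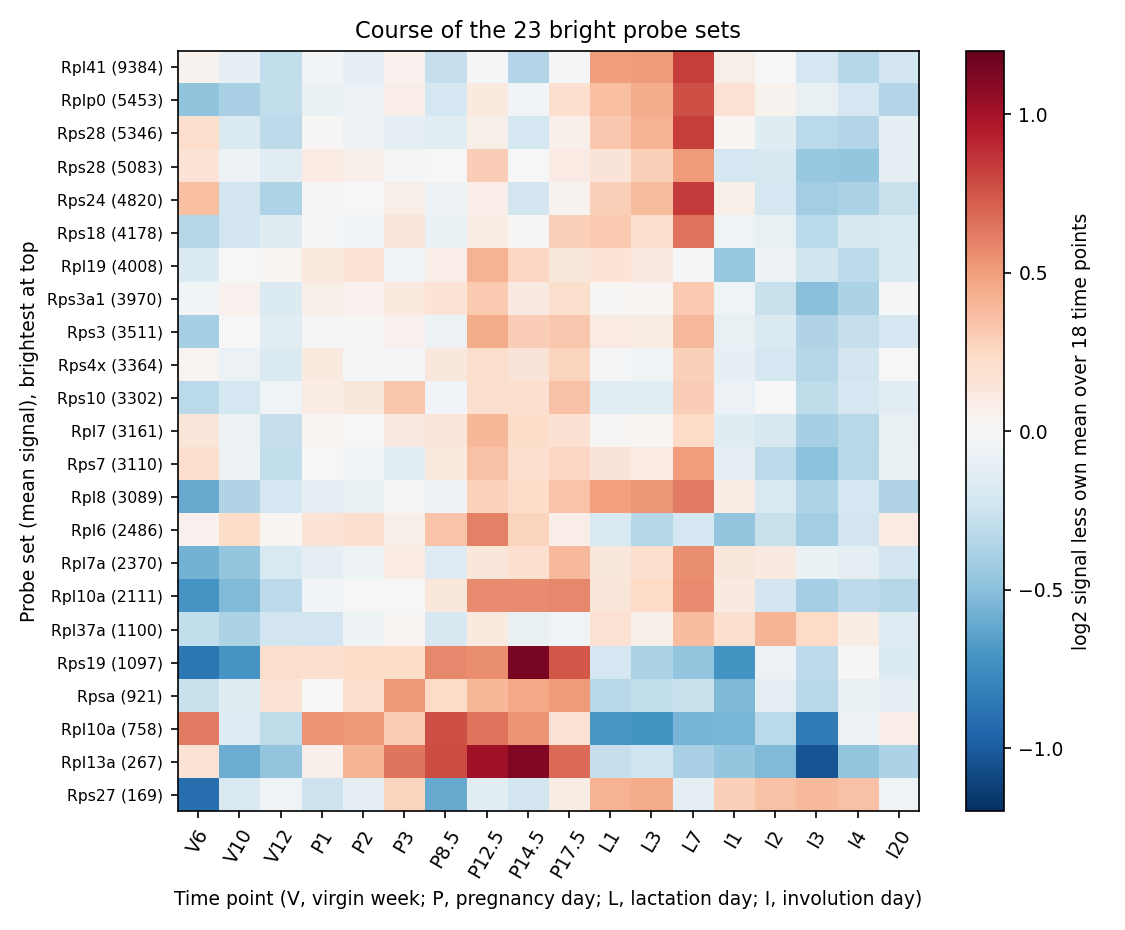
Heat map of the 23 bright probe sets (rows, mean signal in brackets, brightest at the top) over the 18 time points (columns); colour is the log2 signal as deposited, mean of 3 mice, less the probe set's own mean. Rpl41, Rplp0, Rps28 and Rps24 are highest at lactation day 7, Rps19 and Rpl13a at pregnancy day 14.5; after quantile normalization none of the former group was called higher than at pregnancy day 14.5, and 1 of the bright Rps28 probe sets was called lower.

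Members followed a common course to unequal degree. Across the 18 time-point means, as a description over points that share array scaling, the course of a bright probe set correlated with the median of the other bright ones at r from -0.147 to 0.909, with a median of 0.663. Rps3, of the small subunit's mRNA entry site, was the most typical at 0.909, followed by Rpl10a at 0.879. Rps27, a zinc-finger protein of the small subunit, was the least typical at -0.147. Against the median of all tested members, Rps18 at 0.972 and Rpl8 at 0.906 were the closest, and Rpl39l at -0.497 and Rpl22 at -0.455 the farthest.

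Outside the family, 7731 probe sets with 1 symbol were searched for the course most like the bright members. Mphosph10, a component of the small-subunit processome, came first at r = 0.902 over 18 time points, followed by Nipsnap1 at 0.885 and the RNA methyltransferase gene Nsun2 at 0.862. Npnt at 0.858 and Wdr43, another small-subunit assembly gene, at 0.84 completed the nearest 5. Against the course of all tested members the nearest 5 were Mphosph10 at 0.895, Cyhr1 at 0.892, Arg2 at 0.888, Stk16 at 0.87 and Map2k6 at 0.86. Both lists are the top of a search and carry no test.

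Signals over the 18 time points differed for 37 of the 39 tested members in limma's F test (adjusted p under 0.05), where 88.1% of all probe sets also passed, so this count is no property of the family. After the family's median was taken off each array, 36 of 39 still passed, against 92.4% of all probe sets. With the median of the bright members alone as the reference, 34 passed. The share of all probe sets under that reference is not given here, so the 34 is no result about the family. The 6 largest F statistics relative to the family were those of Rpl22, the dim Rps28 probe set, Rpl39l, Rplp0, Rps24 and Rpl8.

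**Figure D3:**
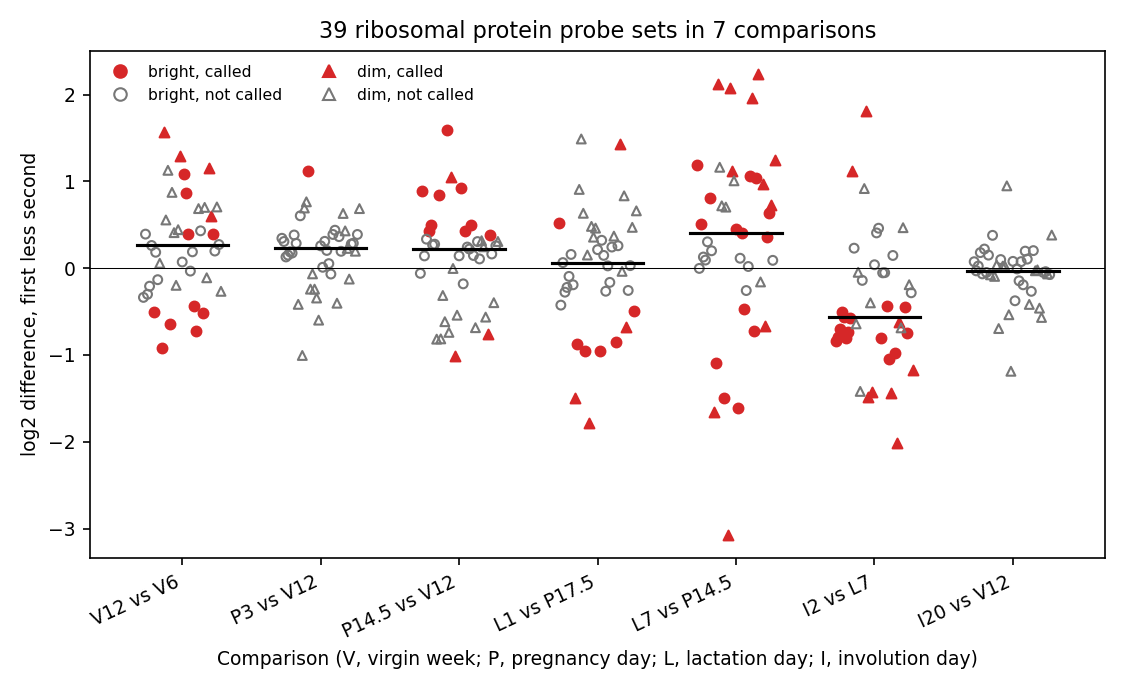
Log2 differences (first less second time point, 3 mice each, signals as deposited) of the 39 tested probe sets in 7 comparisons; circles are bright and triangles dim probe sets, filled red where limma's adjusted p was under 0.05, and bars are medians. The median lies at 0.40 for lactation day 7 against pregnancy day 14.5 and at -0.57 for involution day 2 against lactation day 7; after quantile normalization these medians were -0.14 and -0.14.

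The virgin gland was compared between 6 weeks, during puberty, and 12 weeks. Of the 39 members, 8 were higher and 6 lower at week 12 (limma, adjusted p), where 29.8% of all probe sets were called, 17.2% higher and 12.5% lower. The 3 mice of one age lay wholly above or below those of the other in 28 members, against 50.2% of all probe sets. Scaling all arrays to the same median turned the split of calls to 5 higher and 9 lower, quantile normalization to 14 and 4, and scaling to the same sum without milk protein genes to 15 and 5. Among all 8640 probe sets these scalings gave 755 higher and 1465 lower, 1152 and 1163, and 1815 and 926. The split thus moved with the scaling in all probe sets as well, and the family had no settled direction. Only 4 rises and 3 falls were called under all of these scalings.

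Rps19, a small-subunit protein needed for 18S rRNA maturation, was the largest rise among the bright members called under all 4 scalings. Its signal was 522.6, 639.2 and 645.2 in the mice of week 6 and 1282.3, 1319.9 and 1218.9 in those of week 12, groups that did not overlap, a log2 difference of 1.09 ± 0.32 (SE, n = 3 + 3, limma adjusted p = 0.0099). Rps27 rose in the same way, from a geometric mean of 90.1 to 164.4. Rps24 (97696_r_at) fell from 6173.5 to 3732.5 (-0.73 ± 0.18) and Rps7 from 3595.0 to 2531.0 (-0.51 ± 0.15), again without overlap.

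The beta-actin ratio moved with this comparison. With it as a covariate in limma 0 of the 39 members were called, against 4.04% of all probe sets. At an unadjusted p under 0.05 there were 11 of the 39, against 19.6% of all probe sets. Without week 12 mouse A or mouse B, 9 members were called in place of 14, beside 20.2% and 21.1% of all probe sets. Proliferation genes fell from week 6 to week 12, 6 of 6 measured, with a summed signal of 1273 to 1540 at week 6 and 318 to 514 at week 12; fibroblast genes fell in 4 of 6, from 20927 to 22423 down to 12398 to 13998. The part of these cell changes in the ribosomal protein result was not tested.

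The same 3 mice of virgin week 12 served as reference for pregnancy days 3 and 14.5 and for involution day 20, so these comparisons share their controls. By pregnancy day 3, 1 of 39 members had changed (limma, adjusted p), against 4.24% of all probe sets, 2.69% higher and 1.55% lower. The 3 + 3 mice did not overlap for 16 members, against 28.2% of all probe sets. The changed member was Rpl13a, a large-subunit protein also known for a role outside the ribosome in silencing inflammatory transcripts. Its signal was 175.6, 225.8 and 177.2 at virgin week 12 and 460.6, 350.7 and 445.8 on day 3, without overlap, a 2.17-fold rise (log2 1.12 ± 0.24, adjusted p = 0.004). Proliferation genes rose in 5 of 6 at this stage, from a summed signal of 318 to 514 to one of 991 to 1249, and their part was not tested. With Arl2bp and Glo1 as covariates the Rpl13a difference was 0.90 with an adjusted p of 0.13.

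At pregnancy day 14.5, when alveoli are forming, 10 members were higher and 2 lower than at virgin week 12 (limma, adjusted p), against 17.7% of all probe sets called, 8.82% higher and 8.85% lower. The mice did not overlap for 19 members, against 46.9% of all probe sets. All 9 bright members that were called had risen, where among all 3106 probe sets as bright 15% rose and 9.08% fell. The 7 rises and 1 fall called under all 4 scalings were of Rpl13a, Rpl22, Rps19, both Rpl10a probe sets, Rpl7, Rpl7a and, falling, Rps4l. The median difference of the 39 members was 0.22, and of all probe sets -0.09.

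Rpl13a was 3-fold higher, at 524.3, 777.2 and 466.7 in the 3 mice (log2 1.59 ± 0.24, adjusted p = 5.1e-06). Rpl10a, a large-subunit protein near the exit of the transfer RNA, rose from 1979.7, 1626.6 and 1517.9 to 3061.8, 3375.0 and 2972.4 (0.88 ± 0.17, adjusted p = 2e-04). Rpl22, a large-subunit protein at the surface that also binds certain mRNAs, rose from 153.6, 118.6 and 116.0 to 234.5, 244.7 and 330.2 (1.06 ± 0.30, adjusted p = 0.011). In none of these did the mice of the time points overlap. The other Rpl22 probe set (92856_at) went from 26.5 to 15.8 (-0.74, limma adjusted p = 0.16), so the rise of Rpl22 rests on 1 of its 2 probe sets.

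The mice of these time points also differed in Arl2bp and Glo1, which lay on opposite sides at virgin week 12 and pregnancy day 14.5. With both as covariates in limma 0 of the 39 members were called, against 3.02% of all probe sets. At an unadjusted p under 0.05 there were 6 of the 39, against 15.6% of all probe sets. Rps19 turned to -0.30 on the log2 scale. Rps19 (0.92 ± 0.32, adjusted p = 0.038) was not called when any 1 of the 6 mice was left out, with adjusted p of 0.077 to 0.095, and Rpl22 was not without day 14.5 mouse C (0.066). Rpl10a 161327_f_at and Rpl7a were each lost in 5 of these 6 fits (adjusted p of 0.068 to 0.19 and 0.062 to 0.13), and Rps3 and Rps7 in 4. Leaving out day 14.5 mouse B gave 6 calls in all in place of 12, beside 10.3% of all probe sets called. Leaving out virgin mouse B or C gave 7 each, beside 12.2% and 13.8% of all probe sets. Of luminal epithelial genes 4 of 7 and of proliferation genes 5 of 6 rose at this stage, the former from a summed signal of 2208 to 3760 to one of 4556 to 5020. Of fat-cell genes 4 of 5 fell, with a summed signal of 6513 to 6918 in virgin and 3540 to 4135 in day 14.5 glands, and their part was not tested.

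Between pregnancy day 17.5 and lactation day 1, across birth, 2 of 39 members rose and 8 fell (limma, adjusted p), against 23.3% of all probe sets, 10.1% higher and 13.2% lower. Quantile normalization gave 1 rise and 13 falls, and among all 8640 probe sets 887 rises and 1178 falls. The mice did not overlap for 15 members, against 36.1% of all probe sets. The 8 falls were called under all 4 scalings. They were Rpl22 (the brighter probe set), Rpl39l, Rps19, Rpl13a, Rpl10a (161327_f_at), Rpsa, Rps4l (98149_s_at) and Rps10. The rises were of the dim Rps28 probe set and of Rpl41 (0.52). The former went from 106.6, 104.6 and 76.7 to 198.3, 407.4 and 209.1 (1.44 ± 0.30, limma adjusted p = 0.00046). Quantile normalization gave 0 for Rpl41. It gives equal values to equal ranks, so it cannot decide on a probe set near the top of the arrays at both stages. With only these 6 arrays in the fit, 4 members were called, 2 in each direction.

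Rpsa, the small-subunit protein also known as a laminin receptor, was at 1223.6, 1321.7 and 1394.7 on day 17.5 and at 931.4, 471.6 and 884.0 on lactation day 1, without overlap (-0.85 ± 0.18, adjusted p = 7e-04). The brighter Rpl22 probe set was at 167.0, 221.3 and 106.1 and then at 56.4, 29.8 and 56.8, also without overlap (-1.79 ± 0.30, adjusted p = 2.3e-05). The other Rpl22 probe set (92856_at) did not fall, with geometric means of 33.3 and then 36.9. The fall of Rpl22 across birth thus describes the brighter probe set and not the gene. Rps19 was not called when mouse A or B of day 17.5, or B or C of lactation day 1, was left out (adjusted p of 0.059 to 0.18), and it overlapped between the groups, since 1 mouse of day 17.5 was at 1140.6 and 1 of lactation day 1 at 1329.6. Of fibroblast genes 5 of 6 and of fat-cell genes 4 of 5 fell across birth as well, the former from a summed 4982 to 8582 to 3061 to 3562, and their part was not tested.

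The secreting gland of lactation day 7 was set against the growing gland of pregnancy day 14.5, a comparison in which Arl2bp was low in all 6 mice. Of the 39 members, 17 were higher and 8 lower (limma, adjusted p), against 53.9% of all probe sets called, 27.1% higher and 26.8% lower. The mice did not overlap for 28 members, against 63.8% of all probe sets. Rpl7 97697_at and Rpl35a, tested only because they were high on lactation day 7, are no support for a rise. The other 37 members gave 16 rises and 8 falls. Among these rises, Rpl38 99627_r_at passed the filter only through lactation days 1 and 7. Rps4x 161654_r_at passed only through lactation days 3 and 7 and involution day 2. The count of 16 is therefore not free of selection on lactation. The 8 falls were called under each of the 4 scalings, and 12 of the 17 rises were not. Scaling to the same median gave 12 rises and 9 falls, scaling to the same sum without milk protein genes 12 and 9, and quantile normalization 5 and 16. Among all 8640 probe sets these scalings gave 1943 rises and 2672 falls, 1859 and 2768, and 2129 and 2492.

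Rpl22 showed the largest fall. Its signal was 234.5, 244.7 and 330.2 on pregnancy day 14.5 and 22.1, 46.9 and 30.8 on lactation day 7, an 8.4-fold difference without overlap (log2 -3.07 ± 0.30, adjusted p = 4.1e-11, and -3.14 after quantile normalization). On lactation day 3 it was at 45.5, 10.8 and 18.2, and by involution day 2 it was back to 136.8, 104.5 and 97.4. A second, dimmer Rpl22 probe set (92856_at) was at 14.8, 17 and 15.8 on day 14.5 and at 26.4, 16.9 and 38.4 on lactation day 7, a difference that did not pass the test, and the probe sets correlated at r = -0.421 over the 18 time points. The fall of Rpl22 therefore rests on 1 of its 2 probe sets.

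Rpl39l, a paralog of Rpl39 best known from the testis, was at 27.9, 25 and 37.0 on pregnancy day 14.5 and at or below the floor of 9.4 in all 3 mice of lactation days 3 and 7 and involution day 1. It was at least 3.14-fold lower on lactation day 7 (limma adjusted p = 2.1e-05). It was back above the floor, at 16.3, 19.3 and 27.2, on involution day 2. Its level was low throughout, with 84.3 as the highest array. With the floor raised to the 40th percentile of the signals it was not called on lactation day 7 (-0.37, limma adjusted p = 0.21), on lactation day 1 (-0.27, 0.47) or on involution day 2 (0.085, 0.85).

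Rps19 was at 2431.3, 2432.6 and 2384.5 on pregnancy day 14.5 and at 872.8, 784.6 and 722.2 on lactation day 7, a 3.06-fold fall (-1.61 ± 0.32, adjusted p = 5.2e-05). Rpl13a fell 2.82-fold, from 524.3, 777.2 and 466.7 to 226.2, 204.0 and 182.9 (-1.50 ± 0.24, adjusted p = 1.8e-06). Rpsa fell 1.66-fold and Rpl6, of the large subunit, 1.39-fold. All 4 were lower in each mouse of lactation day 7 than in any of pregnancy day 14.5, and each fall was called under all 4 scalings. With Arl2bp and Glo1 as covariates the Rpl6 fall was -0.30 with a limma adjusted p of 0.12, no longer called.

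**Figure D4:**
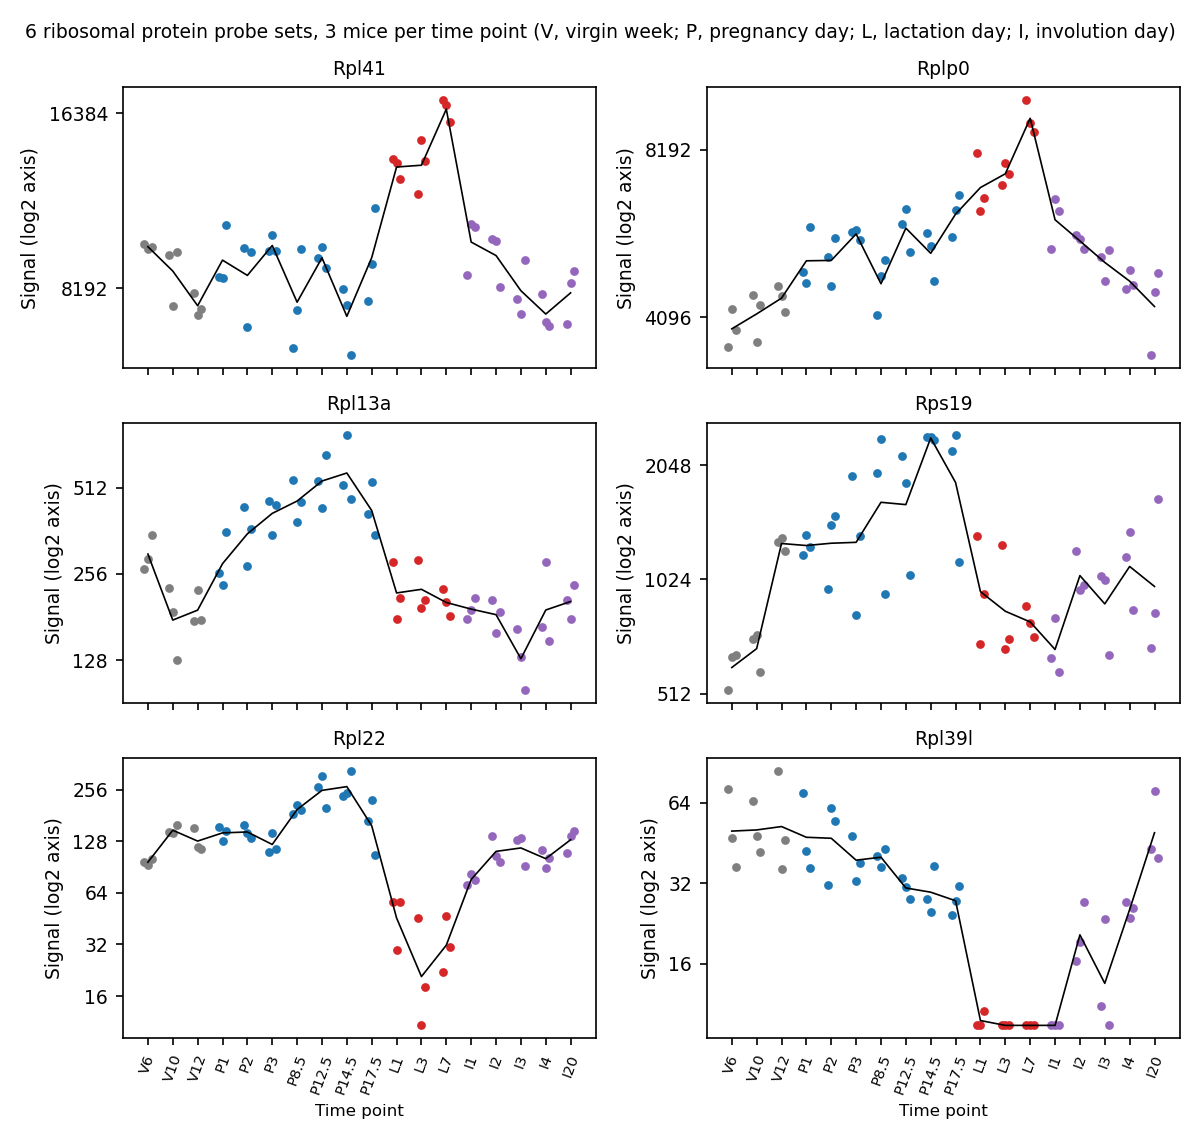
Signals of 6 probe sets (log2 axis, values under 9.4 drawn at 9.4) in 3 mice at each of 18 time points, with lines through the geometric means. Rpl41 and Rplp0 peak at lactation day 7 in the deposited signals (after quantile normalization their differences from pregnancy day 14.5 were -0.04 and -0.16), while Rpl13a, Rps19, Rpl22 and Rpl39l are lower in lactation than at pregnancy day 14.5 under all scalings tried.

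Several of the brightest members showed the opposite sign in the deposited signals. Rpl41 was at 8189.1, 7659.5 and 6296.2 on pregnancy day 14.5 and at 17265.5, 16947.9 and 15818.4 on lactation day 7. This was a 2.27-fold rise as deposited (1.18 ± 0.15, limma adjusted p = 2e-08), and -0.04 after quantile normalization. That scaling gives equal values to equal ranks, so a probe set near the top of the arrays at both stages is held near 0. It therefore cannot decide on a rise of Rpl41. Rplp0 rose from 5803.0, 5497.9 and 4766.5 to 10042.5, 9146.6 and 8818.5 (0.80 ± 0.13), and quantile normalization gave -0.16. Rps24 (97696_r_at) rose from 4272.4, 4646.5 and 3547.7 to 9099.9, 8646.8 and 8150.0 (1.06 ± 0.18), and 1 of the bright Rps28 probe sets (98085_f_at) rose 2.05-fold; neither was called under all 4 scalings. The other (100758_at) rose 1.42-fold as deposited and was called lower after quantile normalization (-0.42, limma adjusted p = 0.0094).

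Among the 23 bright probe sets the deposited difference ran with the level, at r = 0.668 for lactation day 7 against pregnancy day 14.5 and -0.769 for involution day 2 against lactation day 7, as descriptions across probe sets of the same arrays. Of these 23, 9 rose and 5 fell as deposited, and 0 rose and 13 fell after quantile normalization. Among all 3106 probe sets as bright, 22.1% were higher and 37.6% lower as deposited. After quantile normalization 2129 of all 8640 probe sets, bright or dim, were higher and 2492 lower. Shares after quantile normalization among probe sets as bright are not given here. The rises called under all 4 scalings were 5, all of dim probe sets: Rps28 (98086_r_at, from 89.0, 69.5 and 81.9 to 325.7, 421.1 and 388.8), Rps4x (161654_r_at), Rps13, Rpl7 (97697_at) and Rps24 (93121_at). With Arl2bp and Glo1 as covariates the Rps4x rise was 1.56 with a limma adjusted p of 0.065, no longer called. This Rps4x probe set passed the filter only through lactation days 3 and 7 and involution day 2. Rpl7 97697_at passed only through lactation day 7, so its place among the 5 is no support for a rise. The far brighter Rpl7 97695_s_at was at 3671.4 and then 3721.2 as deposited. After quantile normalization it was called lower (-0.43, limma adjusted p = 0.0023), as was the far brighter Rps4x 100780_at (-0.37, 0.0071). For Rpl7 and Rps4x the rise thus describes a dim probe set and not the gene.

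**Figure D5:**
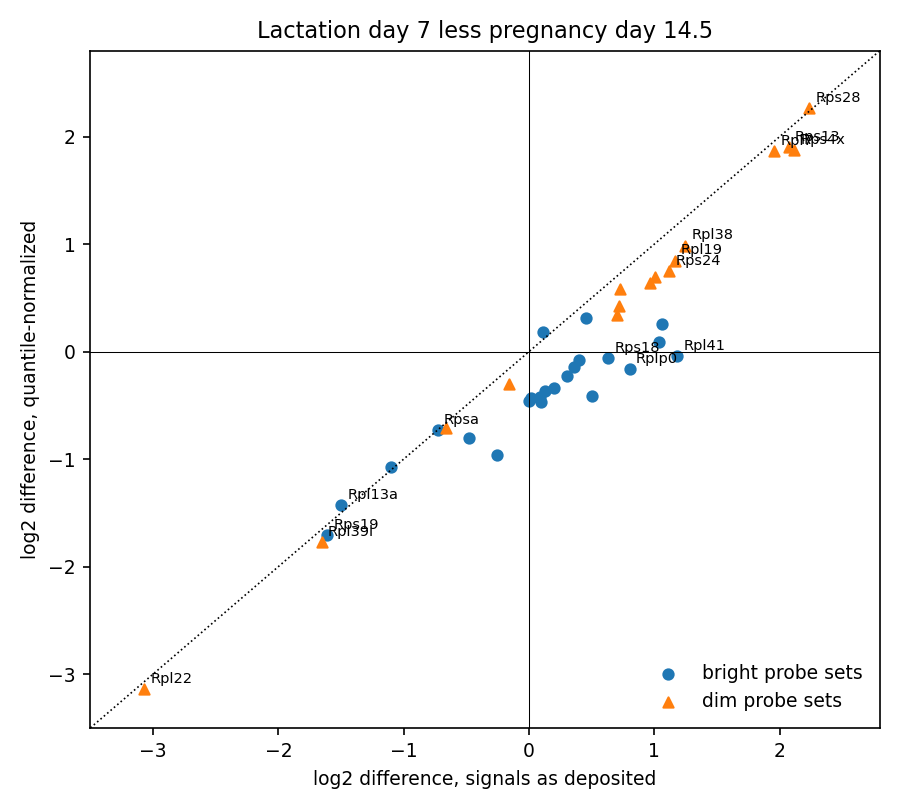
Log2 difference between lactation day 7 and pregnancy day 14.5 for the 39 tested probe sets, as deposited (x axis) and after quantile normalization (y axis); circles are bright, triangles dim, and the dotted line marks equal values. Dim probe sets and the falling members lie near the line, and 12 probe sets above 0 as deposited lie below 0 after quantile normalization, Rpl41 and Rplp0 among them.

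Probe sets of 1 gene did not always move together. Rpl10a 161327_f_at fell from a geometric mean of 1104.6 to 516.3, while Rpl10a 100711_at was at 3131.7 and 3126.3, and the pair correlated at r = 0.099 over the 18 time points. Rps4l 98149_s_at fell 1.58-fold and Rps4l 98148_at rose from 15.5 to 30.4. The bright Rps28 pair correlated at 0.844. The suffixes s, f and r mark probe sets that can detect more than 1 transcript or follow relaxed design rules, and ribosomal protein genes have many processed pseudogenes, so all values of probe sets with such a suffix are uncertain as to gene. Among the 39 tested these are Rpl41, Rps24 97696_r_at, Rps28 98085_f_at and 98086_r_at, Rps4l 98149_s_at, Rpl10a 161327_f_at, Rpl7 97695_s_at, Rps13 93027_r_at, Rps4x 161654_r_at and 162498_r_at, and Rpl38 99627_r_at.

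Markers of other cell types moved with this comparison. Fibroblast genes fell in 6 of 6 measured, with a summed signal of 9770 to 11213 on pregnancy day 14.5 and 1521 to 2168 on lactation day 7. Fat-cell genes fell in 4 of 5 (3540 to 4135 against 849 to 988), macrophage genes in 4 of 5 with 1 rise (1466 to 1650 against 804 to 954), and proliferation genes in 4 of 6 (950 to 981 against 397 to 519), with Top2a at the floor on all 3 lactation arrays. Milk protein genes rose in 4 of 8. Their part in the ribosomal protein result was not tested.

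The rest of the translation machinery is given for comparison, beside the shares of all probe sets: 8.82% rose and 8.85% fell from virgin week 12 to pregnancy day 14.5, and 27.1% rose and 26.8% fell from there to lactation day 7. Of 37 genes of ribosome assembly and RNA polymerase I, 15 rose and 0 fell from virgin week 12 to pregnancy day 14.5, and 3 rose and 19 fell from there to lactation day 7. The 15 rises, and 17 of the 19 falls, were called under all 4 scalings. With Arl2bp and Glo1 as covariates in limma, 0 of the 15 rises at pregnancy day 14.5 were called, against 3.02% of all probe sets. At an unadjusted p under 0.05 there were 6 of 37 genes, against 15.6% of all probe sets. For lactation day 7, 17 falls and 1 rise were called with these covariates. Ncl, the nucleolin of the nucleolus, went from 854.1 on pregnancy day 14.5 to 118.0 on lactation day 7 (-2.86 ± 0.24, adjusted p = 1.2e-12). Myc, a transcription factor that drives ribosome production, went from 118.3 to 14 (-3.08 ± 0.34, adjusted p = 8.7e-10), and Npm1, nucleophosmin, from 1822.8 to 571.3 (-1.67 ± 0.20, adjusted p = 8.4e-09).

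Of 28 initiation factor genes, 12 rose and 0 fell at pregnancy day 14.5 against virgin week 12, 8 of them under all 4 scalings and 1 with Arl2bp and Glo1 as covariates. From there to lactation day 7, 4 rose and 8 fell, with 3 rises and 7 falls under all 4 scalings; this is no larger a share than the 53.9% of all probe sets called. Eif3e, of the eIF3 complex, fell from 212.3 to 65.8 (-1.69 ± 0.30, adjusted p = 1.1e-05). Eif2b4, a subunit of the exchange factor for eIF2, rose from 137.0 to 307.7 (1.17 ± 0.22, adjusted p = 2.1e-05).

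Of 7 genes of translation elongation, factors and a kinase acting on 1 of them, 5 rose and 0 fell at lactation day 7 against pregnancy day 14.5. Of the rises, 3 were called under all 4 scalings. These 3 were Eef2k, the kinase that inhibits eEF2, from 12.4 to 128.5, Eef1a2 from 20.0 to 81.5 and Eef1b2 from 53.7 to 179.4. Of 11 genes of the mTOR pathway to the ribosome, Mtor and genes upstream of it included, 6 rose and 1 fell. Of these, 5 rises and the fall were called under all 4 scalings. These counts give no direction of the pathway's activity. With the covariates 4 rises and 0 falls were called. At an unadjusted p under 0.05 there were then 5 of the 11 genes, against 51.9% of all probe sets. Akt1, a kinase upstream of mTOR, went from 251.3 to 1102.8 (2.13 ± 0.32, adjusted p = 6.4e-07), while Mtor itself fell from 159.1 to 111.1. Of 7 ribosome-associated factors 5 fell, Btf3 of the nascent polypeptide complex from 1179.9 to 372.4 among them. The lists are short, so these counts beside 27.1% and 26.8% of all probe sets are descriptions.

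After the pups were removed, 20 of 39 members were lower and 2 higher on involution day 2 than on lactation day 7 (limma, adjusted p), against 31.9% of all probe sets, 17.2% higher and 14.7% lower. Among all probe sets as bright as the 23, 26% were higher and 16.9% lower, and of the 23 members 0 were higher and 14 lower (1 and 4 after quantile normalization). Without Rpl7 97697_at and Rpl35a, which entered the test only through lactation day 7, 18 of 37 were lower and 2 higher, with a median of -0.50. The 18 still hold Rpl38 99627_r_at, which passed the filter only through lactation days 1 and 7. The mice did not overlap for 29 of the 39, against 47.1% of all probe sets. Quantile normalization left 9 of the 39 lower and 4 higher, and among all 8640 probe sets 1335 lower and 1552 higher. Under all 4 scalings 8 falls and 2 rises were called. The median member differed by -0.57 as deposited and by -0.14 after quantile normalization, and the median of all probe sets was 0.00.

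The 2 rises were Rpl22, from 31.7 to 111.7 (1.82 ± 0.30, adjusted p = 6.9e-06), and Rpl39l, from the floor to 20.5, an at least 2.18-fold rise (adjusted p = 0.0042). Rpl8, a large-subunit protein close to the peptidyl transferase centre, fell from 5247.0, 4705.5 and 4314.6 to 2789.3, 2700.3 and 2676.5, without overlap (-0.80 ± 0.12, adjusted p = 1.2e-06, and -0.35 after quantile normalization). Rps24 (97696_r_at) fell from 9099.9, 8646.8 and 8150.0 to 4927.6, 3513.5 and 4176.2 (-1.05 ± 0.18, adjusted p = 1.6e-05, and -0.36 after quantile normalization). Rplp0 and Rpl41 fell 1.66-fold and 1.79-fold as deposited and were not called under all 4 scalings.

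Markers of other cell types moved at the same time, in both directions. Fibroblast genes rose in 6 of 6, from a summed 1521 to 2168 to 4051 to 6336, macrophage genes in 4 of 5, from 804 to 954 to 1323 to 2370, and fat-cell genes in 4 of 5, from 849 to 988 to 2093 to 2854. Luminal epithelial genes rose in 4 of 7 with 1 fall, from 3464 to 3638 to 5453 to 5771, while of 4 myoepithelial genes 0 rose and 1 fell, with sums of 1496 to 1863 and then 999 to 1188. Their part in the fall of the ribosomal protein genes was not tested. The lowest family share came 1 day later, on involution day 3.

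By involution day 20 the gland was compared with the gland before pregnancy. In limma 0 of 39 members were called, against 2.64% of all probe sets, 1.27% higher and 1.37% lower, with 3 members at an unadjusted p under 0.05 and 2 called with array quality weights. The mice did not overlap for 9 members, against 24.3% of all probe sets. The median member differed by -0.03, which scaling to the same median turned to 0.12. Bright members lay between -0.38 and 0.38, and a p that misses the threshold does not show equal levels. The brighter Rpl22 probe set was at 110.0, 137.4 and 147.5 on involution day 20 and at 153.6, 118.6 and 116.0 before pregnancy, and the groups overlapped. Rpl39l was at 43.0, 70.5 and 39.7, within the range of 36.2 to 84.3 of the 12-week virgin mice. Rpl13a was at 207.4, 178.0 and 233.9, overlapping the 175.6 to 225.8 of the virgin mice.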

How the data were processed

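Total RNA of 1 mouse mammary gland per array was measured on 1-channel Affymetrix arrays, 3 mice at each of 18 time points. The deposited values are signal intensities that the authors computed with MAS5, per the submitters' processing notes; which software version and genome build were used is unknown from the sources used here. The deposited intensity values were linear and scaled to a common level, so all differences are relative to the rest of an array. The number of arrays limits the precision.

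Signals under 9.4 (the 25th percentile) were raised to 9.4 and taken to log2. With 66 control probe sets set aside, 8640 of 12422 were kept because some time point had all its 3 arrays above 22.8 (the 40th percentile). A single limma fit (version 3.58.1, R 4.3.3) took all 54 arrays, with a mean for each time point and eBayes with an intensity trend. Two-sided p-values were adjusted over all 8640 by the Benjamini-Hochberg method and called under 0.05. The standard errors rest on the pooled spread within the 18 time points. A log2 difference understates the change where a signal lies at the floor. The fit was tested on simulated data. Python 3.11.15 with pandas 2.3.3, numpy 2.4.6 and matplotlib 3.10.9 handled tables and figures.

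Named members were, per comparison, the 6 largest rises and 6 largest falls among called probe sets whose 3 + 3 arrays did not overlap, the extremes of level, of likeness to the family and of the F statistic, genes whose probe sets disagreed, and a fixed list of members and paralogs. Outside the family, up to 4 genes of each list were open to naming. The members, the lists and these rules were chosen with earlier results of these data known. The division into bright and dim probe sets, the rescaling without milk protein genes, the reference of bright members and the choice of start-site windows were added after seeing the data. The letters A, B and C name the mice of a time point and did not pair them: deviations of same-letter arrays from their time-point means correlated at a mean r of 0.012, against -0.006 for different letters. Alternatives covered array scaling, the floor, the filter, probe sets per gene, the variance model, array weights, a block, covariates and leaving out each array.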

Additional observations from a re-analysis of the deposited data

How the results depend on the processing

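The 7 comparisons gave 84 calls of members. Of these, 74 kept direction and call with arrays scaled to the same median, 53 with quantile normalization, 76 with the floor at the 40th percentile, 80 with no filter and 82 with array quality weights. The 45 results that passed only under another fit, and 9 only without 1 array, are not described. With the replicate block all 84 calls stayed, and members called on pregnancy day 3 against virgin week 12 numbered 2 in place of 1; the letters did not pair the mice.

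Counts of called members moved as follows. On pregnancy day 3 they numbered 2 with the floor at the 40th percentile, 2 without the filter, 4 with array weights and 0 with Arl2bp and Glo1 as covariates. The latter (6 at an unadjusted p under 0.05, against 11.2% of all probe sets) also gave 0 for pregnancy day 14.5 against virgin week 12 (6, against 15.6%). The beta-actin ratio gave 0 for virgin week 12 against week 6 (11, against 19.6%). Only 6 arrays gave 4 for lactation day 1, and array weights gave 2 for involution day 20. Quantile normalization gave 13 for involution day 2 against lactation day 7. Leaving out 1 array gave 9 to 14 calls for virgin week 12 against week 6 and 6 to 9 for pregnancy day 14.5, and for all arrays kept 419 of 504 calls. At 9 calls for virgin week 12, 20.2% or 21.1% of all probe sets were called, and at 6 for pregnancy day 14.5, 10.3%.

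Among members called in at least 1 of the 2 fits compared, signs turned under quantile normalization for lactation day 7 against pregnancy day 14.5. They turned to -0.038 for Rpl41, -0.42 for Rps28 (100758_at), -0.37 for Rps4x (100780_at), -0.47 for Rps3, -0.16 for Rplp0 and -0.34 for Rps3a1. The others were -0.073 for Rpl8, -0.43 for Rpl7 (97695_s_at), -0.14 for Rpl7a, -0.06 for Rps18 and -0.42 for Rps10. Counting uncalled members, 12 turned here, 5 on lactation day 1 and 5 on involution day 2. Quantile normalization also gave 0 for Rpl41 on lactation day 1, and 0.38 for Rpl19 (97483_at) and 0.026 for Rpl7 (97695_s_at) on involution day 2. For Rpl41, near the top of the arrays, it sets the values by rank and cannot decide. With Arl2bp and Glo1, Rps19 turned to -0.30 on pregnancy day 14.5. The cause was not tested.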
